A study of Rattus norvegicus with 12 samples.

Results

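The comparison described here set LPS alone against control in cells recovered from the airspaces of rat lungs. Its members were the 3 LPS arrays and the 3 CTL arrays, 6 of the 12 arrays of the study, taken by their group labels, and every gene on the array was examined. The animals were 8-week-old male Sprague-Dawley rats, fasted and without water during the experiment. CTL rats received saline by the tail vein, and LPS rats received lipopolysaccharide in saline by the same route at 0.5 mg/kg, both at normal pressure. The other 6 arrays came from rats exposed for 6 h to hypobaric hypoxia alone (HPO) or given LPS and then the same hypoxia (COMB). An LPS injection time is not tied to the time of lavage for the normoxic rats in the labels, so the interval between them is not known here.

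Each array was hybridised with RNA pooled from several rats of 1 group (3 rats for each CTL and LPS pool), with no rat in more than 1 pool of its group. Some rat numbers recur between groups, and the labels do not say whether a shared number links rats of different groups. A pool therefore hides the spread between animals, and the p-values below measure the spread between pools. The cells were the pellet of bronchoalveolar lavage fluid (BALF), the wash of the right lung, and were not sorted. In such a mixture, fewer cells of a type and less RNA per cell cannot be told apart. Of the listed markers of alveolar macrophages, the resident phagocytes of the airspace, 16 were on the array and all 16 passed the filter on dim signals. Among them was Cd68, a lysosomal protein of macrophages, with intensities of 3663 to 4250 in CTL and 3811 to 4066 in LPS. The labelled cell fraction thus held macrophage transcripts in all 6 pools, together with transcripts of other cells described below.

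LPS is the outer-membrane glycolipid of Gram-negative bacteria. It is handed by the plasma protein LBP to CD14 and then to the TLR4 and MD-2 receptor complex. From there the MyD88 adaptor leads to NF-kB and early cytokine genes, while the TRIF adaptor leads to IRF3, type I interferon and interferon-stimulated genes. Acute phase proteins are the secreted products of the later, cytokine-driven response. Chaperones are known for refolding damaged proteins in the cytosol, and a separate set does so in the endoplasmic reticulum (ER), where it is controlled by the unfolded protein response.

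Values are array intensities as deposited, on a linear scale, and differences are log2 fold changes of intensity plus 1, LPS minus CTL, with their standard error (SE). They were tested with limma over 25692 probe sets that stood above their array's 20th percentile in at least 3 arrays. A probe set was called when its Benjamini-Hochberg adjusted p was under 0.05. Each gene was represented by its brightest probe set, which gave 12853 genes. Probe sets of genes with near-identical relatives, such as Hspa1a, Oas1a and RT1-S3, may also bind those relatives. Intensities of different probe sets cannot be set against each other, because each binds with its own efficiency.

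The pools are numbered here as CTL pool 1 (rats 1, 3 and 4), 2 (5, 6 and 7) and 3 (8, 9 and 10), and LPS pool 1 (rats 2, 3 and 6), 2 (5, 7 and 11) and 3 (8, 9 and 10), and their values are always given in this order. CTL pool 2 stood apart, and the results that it moved most are given with and without it. This pool correlated with the other CTL pools at Pearson's r of 0.984 and 0.989 over log2 intensities, where the other CTL pair gave 0.993 and the LPS pairs 0.992 to 0.993. It had the highest ratio of 3′ to 5′ signal of the 6 pools, a measure of RNA integrity, at 1.46 for GAPDH against 1.20 to 1.34 and 6.90 for actin against 4.95 to 6.32. Its mean log2 intensity over 23 T and NK cell markers was 7.13, against 5.10 and 6.07 in the other CTL pools and 5.33 to 6.02 in LPS. Over 12 genes of MHC class II presentation it was 8.84, against 7.20 and 7.77 in the other CTL pools and 7.50 to 7.65 in LPS. Over 41 interferon-stimulated genes it was 8.65, against 7.28 and 7.48 in the other CTL pools, and so lay within the LPS range of 8.53 to 8.84. The part of lymphocytes and of RNA quality in the results below was not tested.

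LPS changed 525 probe sets, which is 2.04% of those tested. 223 of them were higher in LPS (0.868%) and 302 were lower (1.18%). The changes upwards were larger, with a median log2 fold change of 0.84 among the higher probe sets and -0.66 among the lower ones, and of the 118 that changed at least 2-fold, 85 were higher and 33 lower. By gene, 357 were called (2.78%), 159 of them higher (1.24% of genes) and 198 lower (1.54%), against a median over all genes of -0.02. At an unadjusted p under 0.05 there were 3796 probe sets, and the LPS and CTL pools did not overlap at 26.5% of probe sets. These included all 223 probe sets called higher and all 302 called lower. Separate pools are therefore no further evidence for a called gene. Brighter probe sets were called more often, from 0.156% to 4.83% between the dimmest and the brightest of 4 equal parts of the array.

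**Figure D1:**
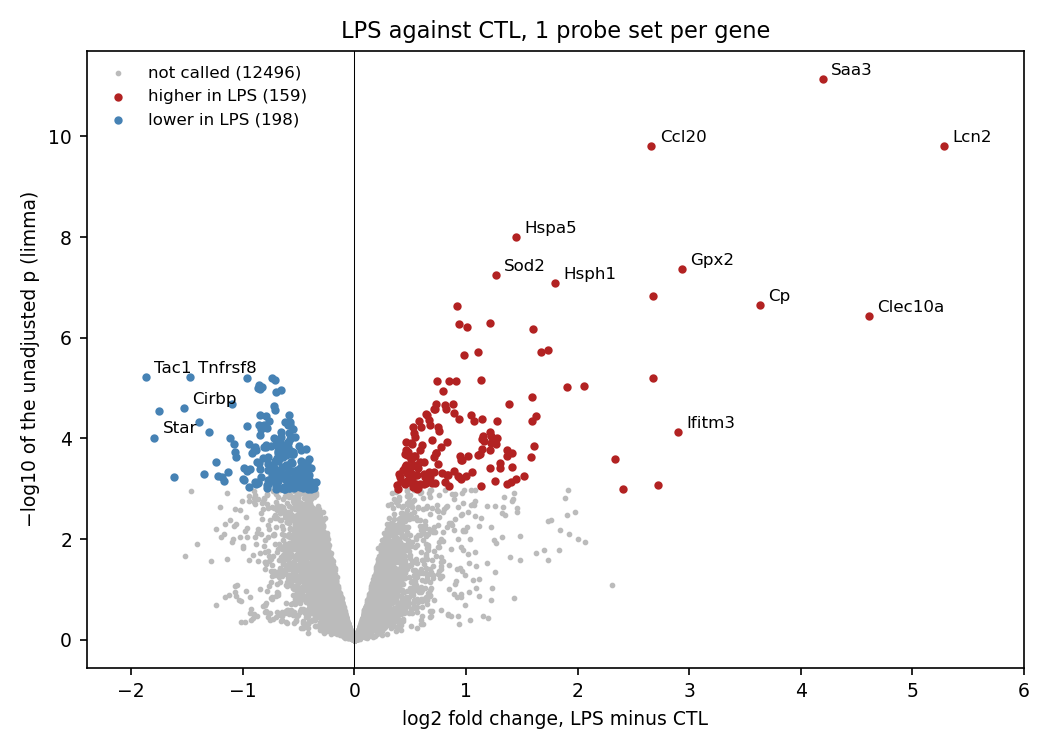
Each point is a gene, with the log2 fold change of LPS minus CTL on the horizontal axis and the −log10 of the unadjusted limma p on the vertical axis. Red points are the 159 genes called higher and blue points the 198 called lower. The furthest points to the right are Lcn2 at 5.29 and Clec10a at 4.61, and the leftmost blue point is Tac1 at -1.87.

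The number of calls leaned on every pool. Leaving out 1 pool gave 64 to 445 called probe sets, namely 85, 445 and 64 without CTL pool 1, 2 and 3, and 118, 199 and 120 without LPS pool 1, 2 and 3. 62 probe sets, including those that stood for 30 risen and 12 fallen genes, were called in the full fit and in all 6 of these fits. The risen genes among these were Lcn2, Clec10a, Saa3, Cp, Gpx2, C3, Hp, Ccl20, Oas1a, Cd14, Hsph1, Rtp3, Rtp4, Cflar, Il1rap, Hspa5, Rarres1, Sod2, Creld2, Stat2, Stip1, Hyou1, Tmem33, Manf, Hsp90b1, Cry1, Pdia4, Fkbp4, Stoml1 and Dnajc3. The fallen genes among these were Cytip, Rara, Arhgef3, Aldh3b1, 2810025M15Rikl, Ing2, F11r, Gadd45a, Snn, Cd1d1, Tnfrsf8 and Tac1. They are called the stable genes below, and any other gene described as called lost its call in at least 1 fit without a pool.

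Acute phase and antimicrobial proteins held 5 of the 15 highest fold changes, the top one included. Of 32 measured genes of this list, 7 rose and 1 fell, and 29 lay above 0, with a median log2 fold change of 0.76. Over all genes 1.24% rose, 1.54% fell and 45.6% lay above 0, and the counts of each list below stand beside these shares. Lcn2, lipocalin-2, which binds the iron carriers of bacteria, had intensities of 18.5, 31.9 and 23.0 in the CTL pools and 1091, 945 and 888 in the LPS pools. All LPS pools were far above all CTL pools, a 39.0-fold rise (log2 fold change 5.29, SE 0.26, adjusted p = 1.34e-06). Saa3, a serum amyloid A made outside the liver, stood at 77.6, 102 and 67.5 in the CTL pools and 1759.7, 1422 and 1368 in the LPS pools, an 18.3-fold rise (log2 fold change 4.20, SE 0.16, adjusted p = 1.84e-07). Both were stable genes.

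Other risen members of the list were Cp, Hp and C3. Cp, ceruloplasmin, the copper-carrying ferroxidase of plasma, went from 11.9, 34.2 and 16.5 in CTL to 331, 206 and 220.3 in LPS (log2 fold change 3.63, SE 0.35, adjusted p = 0.000606), and all 3 of its probe sets were called. Hp, haptoglobin, which captures free haemoglobin, went from 41.7, 63.6 and 35.2 in CTL to 346, 249 and 298 in LPS (log2 fold change 2.67, SE 0.25, adjusted p = 0.000483). C3, the central complement component, went from 48.0, 126 and 93.6 in CTL to 779.6, 424 and 460.3 in LPS (log2 fold change 2.68, SE 0.35, adjusted p = 0.00462). All were stable genes, and in each the highest CTL pool was CTL pool 2, which lay below the lowest LPS pool as at every probe set called higher.

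The last risen members of the list were Bpifa1 and Bpifb1, secreted antibacterial proteins of the airway lining, at log2 fold changes of 1.14 and 1.37. S100a8 and S100a9, the calcium-binding proteins of neutrophils and monocytes, did not pass the test in the full fit. S100a9 had intensities of 20.6, 2011 and 60.2 in the CTL pools and 513, 576 and 1098 in the LPS pools, with CTL pool 2 above every LPS pool. Without that pool 9 members rose, S100a8 and S100a9 among them (log2 fold changes 2.82 and 4.24, adjusted p = 0.0074 and 0.0054). Bpifb1 lost its call in each fit without a pool. Without another pool the list had 5 to 7 risen members. The single member that fell was Camp, the cathelicidin precursor, at 235, 191 and 206 in the CTL pools and 131, 109.8 and 115 in the LPS pools (log2 fold change -0.82, SE 0.16, adjusted p = 0.026), and it was not called in 5 of the 6 fits without a pool.

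**Figure D2:**
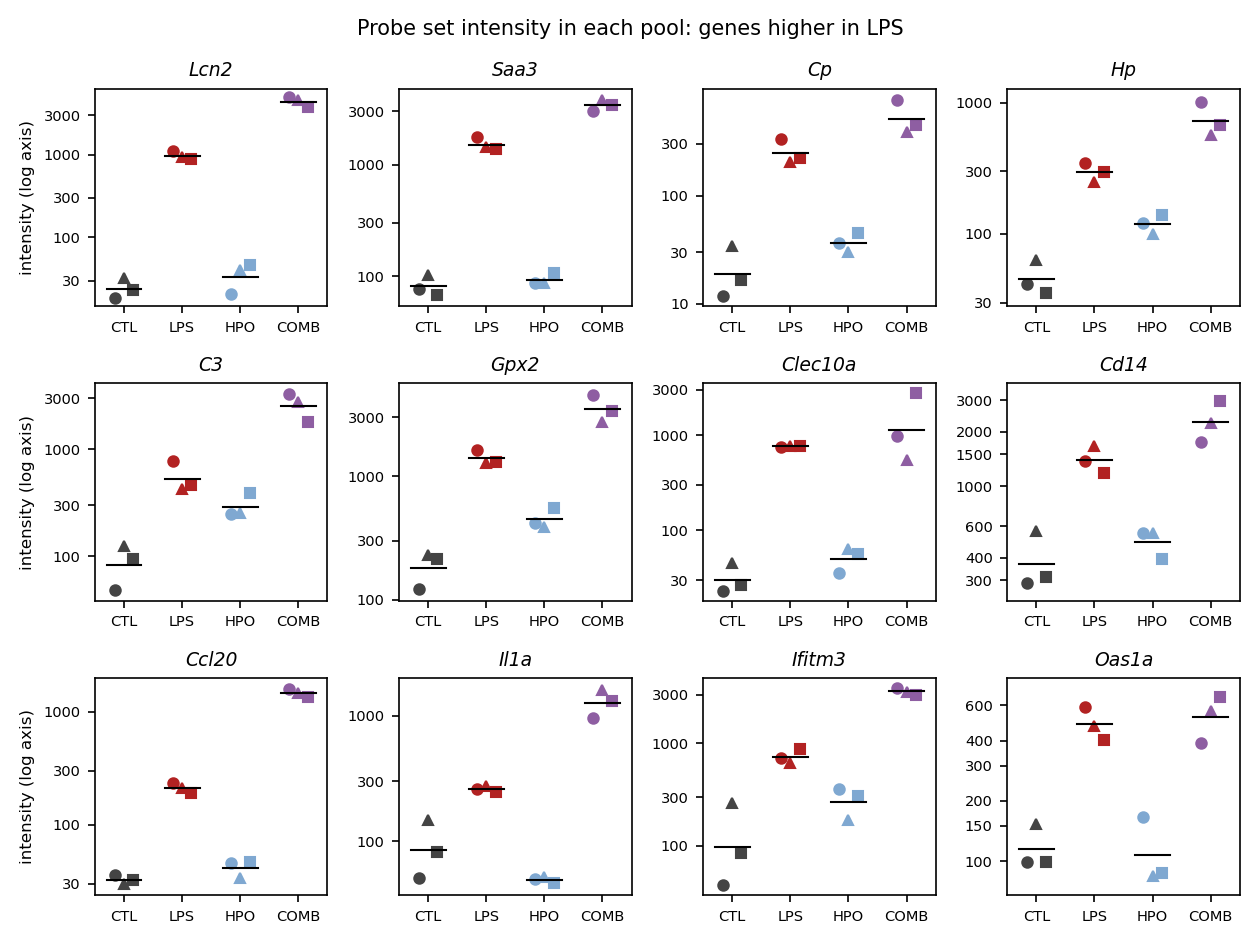
Intensity of 12 genes that rose in LPS, on a log axis, in each pool of the 4 groups, with circles, triangles and squares for pools 1, 2 and 3 and a bar at the mean taken on the log2 scale. The CTL triangle is CTL pool 2. In each panel the LPS points lie above the CTL points, as they did at every probe set called higher. In every panel but that of Ccl20 the CTL triangle is the CTL point nearest to LPS.

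Transcripts of the airway lining were also higher. Of 27 markers of airway epithelium, 5 rose and none fell, and 21 lay above 0, with a median of 0.53. These were the secretoglobins Scgb3a1 and Scgb1a1 of club cells, Bpifa1, Bpifb1 and Rsph1, a part of the ciliary radial spoke. Scgb1a1 had intensities of 5499, 6353 and 4107 in the CTL pools and 8478, 8512 and 8755 in the LPS pools (log2 fold change 0.71, SE 0.15, adjusted p = 0.0365). The call was lost for all 5 without LPS pool 1 or 3. The lean above 0 was not particular to the airway list. Of 15 alveolar epithelium markers 13 lay above 0 (median 0.43), with a list mean of 6.04 to 6.36 in CTL and 6.60 to 6.81 in LPS. So did 11 of 12 endothelium and fibroblast markers (median 0.27) and 7 of 8 erythrocyte and platelet markers (median 0.31). None of these was called. The summed level of the airway list, as its mean log2 intensity, ran from 6.53 to 6.73 in CTL, from 6.79 to 7.29 in LPS and from 7.33 to 7.66 in HPO. Lcn2 in those same HPO pools stood at 20.5 to 46.0, Saa3 at 86.3 to 108, C3 at 249 to 392 and Hp at 99.1 to 140.2. The HPO rats received no LPS, and the part of epithelial cells in the rises of these genes was not tested.

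Of 19 measured members of the TLR4 complex and its adaptors, 1 rose and none fell, with a median of 0.02. It was Cd14, the surface co-receptor that hands LPS to TLR4, at 289.8, 564 and 314 in the CTL pools and 1375, 1675 and 1177 in the LPS pools (log2 fold change 1.90, SE 0.26, adjusted p = 0.00538). It was a stable gene and rose 3.74-fold. Tlr4 itself stood at 413, 409.6 and 443 in the CTL pools and 563, 523 and 487 in the LPS pools (log2 fold change 0.31, SE 0.11, adjusted p = 0.213), with no overlap between the groups but no call. Tlr2, a receptor for bacterial lipoproteins that shares the MyD88 adaptor, stood at 104, 148 and 80.6 in the CTL pools and 170.3, 164 and 153 in the LPS pools (log2 fold change 0.59, SE 0.17, adjusted p = 0.116), and without CTL pool 2 it was called as a further risen member (log2 fold change 0.82, adjusted p = 0.015). Lbp had a log2 fold change of 0.93 with an SE of 0.24 and an adjusted p of 0.0764. The adaptor Myd88 stood at -0.08 and Ly96, which encodes MD-2, at -0.15, both with an adjusted p over 0.05.

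NF-kB subunits and their feedback inhibitors moved little. Of 15 measured members 2 rose and none fell, with a median of 0.07. Nfkbiz, an atypical inhibitor that helps activate secondary response genes, stood at 113, 258 and 159.7 in the CTL pools and 449.7, 518 and 306 in the LPS pools (log2 fold change 1.31, SE 0.27, adjusted p = 0.0329), although only 1 of its 2 probe sets was called. Zc3h12a, the RNase regnase-1 that degrades cytokine mRNAs, stood at 51.9, 65.7 and 52.2 in the CTL pools and 115, 108 and 81.6 in the LPS pools (log2 fold change 0.83, SE 0.15, adjusted p = 0.0196). Both lost their call when CTL pool 1 or 3, or LPS pool 1 or 2, was left out. Nfkbia, which encodes the classical inhibitor IkB alpha, was at 983, 1142 and 829 in the CTL pools and 1342, 1590.5 and 1049 in the LPS pools (log2 fold change 0.42, SE 0.26, adjusted p = 0.522).

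Of 38 cytokines and chemokines, 5 rose and 1 fell, with a median of 0.14. Ccl20, which draws CCR6-bearing lymphocytes and dendritic cells, stood at 35.9, 29.8 and 32.4 in the CTL pools and 233, 211 and 193 in the LPS pools. It was a stable gene with a 6.33-fold rise and little spread in either group (log2 fold change 2.66, SE 0.13, adjusted p = 1.34e-06). Il1a, the cell-bound form of interleukin-1, stood at 51.0, 147 and 81.5 in the CTL pools and 261, 277 and 248 in the LPS pools (log2 fold change 1.61, SE 0.29, adjusted p = 0.021), with 1 of its 2 probe sets called. Cxcl1, a neutrophil attractant, stood at 19.2, 134 and 20.5 in the CTL pools and 216, 245 and 162 in the LPS pools and only just passed the test (log2 fold change 2.41, SE 0.56, adjusted p = 0.0497). Without CTL pool 2 its log2 fold change was 3.30 (adjusted p = 0.000124), and without any other pool it was not called.

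Cx3cl1, the membrane-bound chemokine fractalkine, and Ccl9 rose by 0.93 and 0.67 on the log2 scale. Il16, a chemoattractant for CD4+ cells, fell from 279, 267 and 311 in CTL to 131, 134 and 166 in LPS (log2 fold change -0.99, SE 0.20, adjusted p = 0.0329). Apart from Ccl20, no member of this list was called in all fits without a pool, and the count of risen members was 1 in every such fit but that without CTL pool 2, where it was 4.

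That pool also held the highest Il1b and Cxcl2 of the 6 pools. Il1b stood at 138, 1553 and 167 in the CTL pools and 841, 819 and 682 in the LPS pools, and with that pool it was not called (log2 fold change 1.23, SE 0.68, adjusted p = 0.457), while without it the log2 fold change was 2.35 (adjusted p = 0.0017). Tnf stood at 46.1, 68.5 and 59.8 in the CTL pools and 96.1, 109.5 and 92.2 in the LPS pools, with no overlap between the groups but no call (log2 fold change 0.78, SE 0.25, adjusted p = 0.156), and neither of its 2 probe sets was called. The neutrophil attractant Cxcl2 had 61.0, 2016 and 118 in CTL and 305, 449 and 179 in LPS, and its fold change was 0.24 with the pool (adjusted p = 0.946) and 1.76 without it (adjusted p = 0.129). Ccl3, another macrophage chemokine, was at 0.39 (adjusted p = 0.731). Hif1a, the oxygen-regulated transcription factor, was at 0.39 with the pool (adjusted p = 0.218) and 0.59 without it (adjusted p = 0.023). The single probe set of Il6 did not pass the filter, at 6.82 to 8.42 over the 6 pools.

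Interferon-stimulated genes were higher almost throughout the list, and their calls turned on the same CTL pool. Of 41 measured members 38 lay above 0, with a median log2 fold change of 0.89, and 7 passed the test, none downwards. The risen members were Ifitm3, Oas1a, Ifi44, Stat2, Parp12, Dtx3l and Sp110. Without CTL pool 2 the median was 1.21 and 22 members were called, where 1.17% of all genes were called higher. Without any other pool 2 or 3 were called.

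Oas1a, an oligoadenylate synthetase that turns on RNase L against viral RNA, stood at 99.5, 154 and 99.4 in the CTL pools and 589, 473 and 405 in the LPS pools (log2 fold change 2.06, SE 0.28, adjusted p = 0.00538). Stat2, the transcription factor that carries the interferon signal to the nucleus, stood at 371, 428 and 362 in the CTL pools and 893, 957 and 721 in the LPS pools (log2 fold change 1.14, SE 0.15, adjusted p = 0.00462). Both were stable genes with no LPS pool near the CTL range. Ifitm3, a membrane protein that blocks viral entry, stood at 41.4, 265 and 85.4 in the CTL pools and 715, 639 and 889 in the LPS pools (log2 fold change 2.90, SE 0.49, adjusted p = 0.0158), and its spread lay mostly among the CTL pools. Its log2 fold change was 3.62 without CTL pool 2 (adjusted p = 0.000508) and 2.29 without CTL pool 1. Isg15, a ubiquitin-like modifier, stood at 96.0, 2127 and 120.2 in the CTL pools and 997, 757 and 642 in the LPS pools, where CTL pool 2 exceeded all LPS pools. Its log2 fold change was 1.43 with that pool (adjusted p = 0.544) and 2.86 without it (adjusted p = 0.015).

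The supply of peptides to MHC class I followed the same direction. Of 17 measured members 6 rose and none fell, with a median of 0.37. Nlrc5, the transactivator of class I genes, stood at 34.1, 67.1 and 38.1 in the CTL pools and 134, 139 and 89.9 in the LPS pools (log2 fold change 1.40, SE 0.31, adjusted p = 0.0426). Psme2, a subunit of the proteasome activator PA28, went from 1057, 1062 and 936 in CTL to 1649.6, 1628 and 1509.5 in LPS (log2 fold change 0.65, SE 0.10, adjusted p = 0.0106). The other risen members were RT1-S3, a class I molecule, the immunoproteasome subunits Psmb9 and Psmb10, and Calr, the ER chaperone calreticulin, with log2 fold changes of 0.53 to 1.10. No member of the list was called without CTL pool 3 or LPS pool 1, 1 without LPS pool 3, and 2 without CTL pool 1 or LPS pool 2. Without CTL pool 2 Psmb10 lost its call (adjusted p = 0.058) and Tap1, a subunit of the peptide transporter, gained one (log2 fold change 1.34, adjusted p = 0.012). None of 12 genes of MHC class II presentation was called, with a median of -0.42 with CTL pool 2 and 0.13 without it.

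Of 46 cytosolic chaperones and cochaperones 15 rose and none fell (32.6% of the list against 1.24% of all genes), and the LPS and CTL pools did not overlap, LPS higher, for 29 of the 46, against 12.0% of all genes. The median log2 fold change was 0.30, so that the rises were smaller than in the acute phase list. The mean log2 intensity over the list was 8.62 to 8.70 in LPS and 8.30 to 8.31 in CTL, and here CTL pool 2 was level with the others.

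Hsph1, the large heat shock protein that releases ADP from HSP70, stood at 481, 521 and 520.1 in the CTL pools and 1707, 1434 and 2263 in the LPS pools, a 3.49-fold rise (log2 fold change 1.80, SE 0.16, adjusted p = 0.0003). Hspa1a, the stress-inducible HSP70, stood at 156, 454 and 172 in the CTL pools and 752, 719 and 541 in the LPS pools (log2 fold change 1.52, SE 0.33, adjusted p = 0.0381), with CTL pool 2 the highest of CTL. Stip1, which passes client proteins from HSP70 to HSP90, stood at 197, 201 and 199.9 in the CTL pools and 435, 394 and 464 in the LPS pools (log2 fold change 1.11, SE 0.13, adjusted p = 0.00233). Fkbp4, a cochaperone of HSP90 in steroid receptor complexes, went from 180.5, 148 and 180.4 in CTL to 286, 284 and 329.5 in LPS (log2 fold change 0.82, SE 0.12, adjusted p = 0.00928). Hsph1, Stip1 and Fkbp4 were stable genes, and Hspa1a was called in only 1 fit without a pool, that without CTL pool 2 (log2 fold change 2.01).

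The others were Cacybp, Chordc1, Dnaja1, Ahsa1, St13, Hsp90ab1, Ptges3, Hspe1 and the chaperonin subunits Cct3, Cct6a and Cct8, with log2 fold changes of 0.40 to 1.16. Hsp90ab1, the constitutive cytosolic HSP90, went from 3052, 2939 and 3096 in CTL to 3992, 4071 and 4489.6 in LPS (log2 fold change 0.46, SE 0.08, adjusted p = 0.0196). Hsf1, the factor that switches on heat shock genes, was not called at 0.17 (adjusted p = 0.605), and Hspb1 stood at 0.65 (adjusted p = 0.567). The number of risen chaperones was 5, 10 and 3 without the CTL pools in the order given above, and 5, 7 and 5 without the LPS pools.

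The chaperones of the ER rose with less dependence on a single pool. Of 27 members of the unfolded protein response list 11 rose and none fell, with a median of 0.40, and 7 or 8 were called in each fit without a pool. Hspa5, the ER chaperone BiP, stood at 1002, 1173 and 1082 in the CTL pools and 2736, 2931 and 3255 in the LPS pools, a 2.74-fold rise (log2 fold change 1.45, SE 0.10, adjusted p = 6.51e-05). Hsp90b1, the ER form of HSP90, stood at 1420.3, 1456 and 1435 in the CTL pools and 2558, 2787 and 2811 in the LPS pools (log2 fold change 0.92, SE 0.09, adjusted p = 0.000606). Manf, a secreted ER stress protein, stood at 1009, 905 and 909 in the CTL pools and 1703, 1773 and 1926 in the LPS pools (log2 fold change 0.94, SE 0.10, adjusted p = 0.0009). In these 3 stable genes the pools within a group lay close together.

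Creld2, Hyou1, Pdia4 and Dnajc3, also stable, and Pdia6, Dnajb11, Herpud1 and Dnajb9 completed the list, at log2 fold changes of 0.51 to 1.21. The transcription factors of the response behaved otherwise. Xbp1 stood at 0.03 (adjusted p = 0.922), Atf4 at 0.09 (adjusted p = 0.704), Ddit3, which encodes CHOP, at 0.38 (adjusted p = 0.679) and Atf3 at -0.60 (adjusted p = 0.433), none of them called. Without CTL pool 2 Ddit3 stood at 0.63 (adjusted p = 0.437) and Atf3 at -0.15 (adjusted p = 0.833), so most of the lower Atf3 value came with that pool. The array measured the Xbp1 transcript without regard to its splicing.

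**Figure D3:**
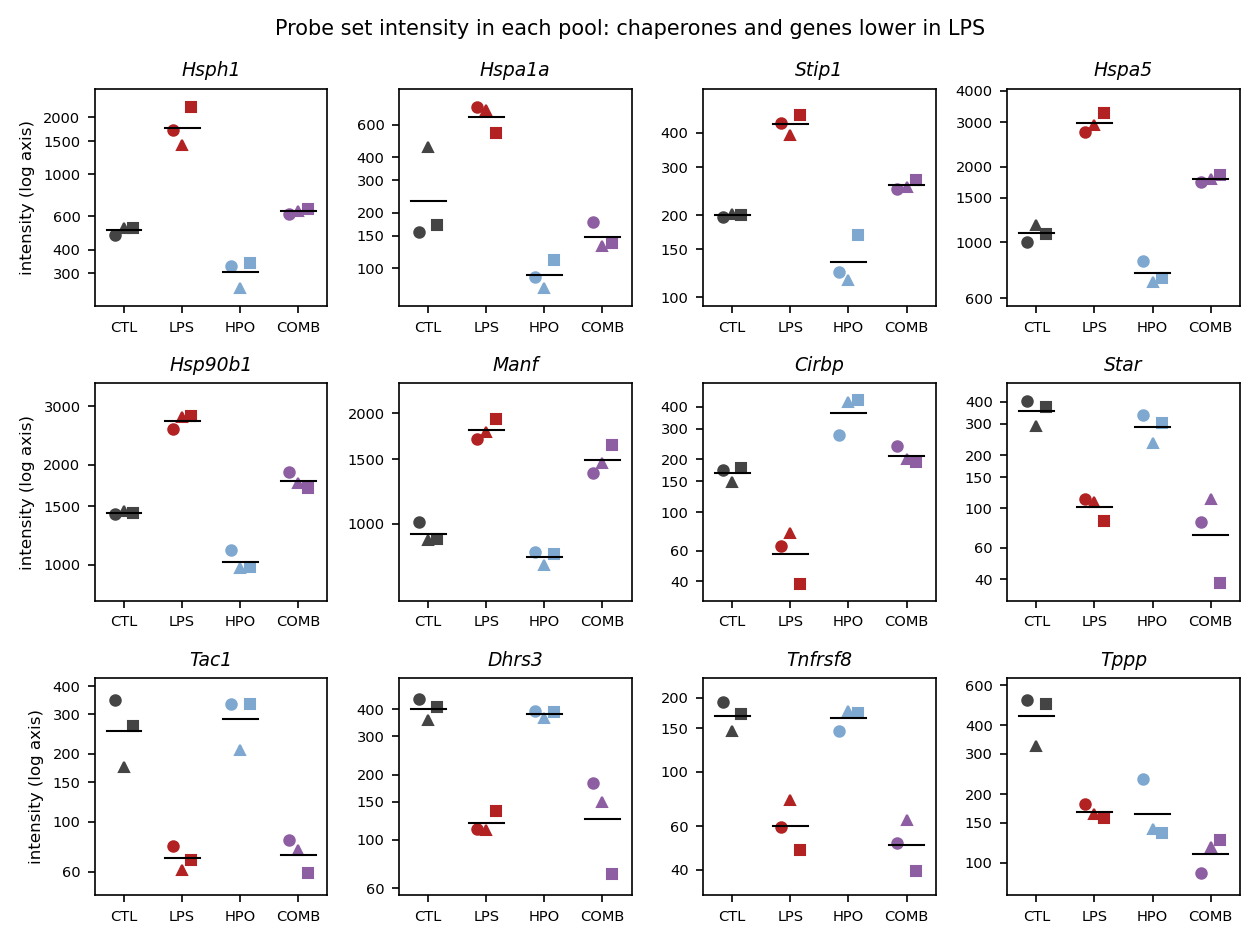
Intensity, on a log axis, of 6 chaperones that rose and 6 genes that fell in LPS, in each pool of the 4 groups, drawn as in the plot of genes higher in LPS. The LPS points of Hsph1, Stip1, Hspa5, Hsp90b1 and Manf lie above those of all other groups, and the LPS points of Cirbp lie below them.

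The chaperone level of the LPS pools was also above that of the hypoxic groups, where the list mean was 8.03 to 8.30 in HPO and 8.30 to 8.40 in COMB. In Hsph1 the COMB pools stood at 621 to 654 and the HPO pools at 252 to 342, and COMB was below LPS by the same fit (log2 fold change -1.47, SE 0.16, adjusted p = 0.000563). Cirbp, an RNA-binding protein named for its induction by cold, went the other way, at 175, 149 and 178 in the CTL pools and 64.0, 75.5 and 38.8 in the LPS pools (log2 fold change -1.53, SE 0.23, adjusted p = 0.00928), with all 3 of its probe sets called. It stood at 275 to 436 in HPO and 193 to 240 in COMB, and COMB was above LPS (log2 fold change 1.86, SE 0.23, adjusted p = 0.000907). Its call was lost without CTL pool 1 or 3 (adjusted p = 0.052 and 0.058). Rbm3, the other cold-induced RNA-binding protein measured, stood at 1711, 1979 and 2026 in the CTL pools and 1494, 1401 and 1566 in the LPS pools, lower in every LPS pool but not called (log2 fold change -0.35, SE 0.13, adjusted p = 0.204). Body temperature was not among the labels.

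The promoters of some leading genes, each with a match to a sequence element known for regulators of its group, are shown here. They are the 250 bases before the RefSeq transcription start in the rat assembly GRCr8, 5′ to 3′ on the strand of the gene, with the bases that match the named motif in capitals. The motifs were searched on both strands over windows of 250 bases before to 50 after the start of 33469 genes. The heat shock element was searched as GAA, any 2 bases, TTC, any 2 bases and GAA, and the ER stress element as CCAAT, any 9 bases and CCACG. The interferon-stimulated response element was GAAA, any 2 bases and GAAA, the NF-kB site was GGG, any 2 bases, TT, any base and CC, and the STAT site was TTCC, any 2 bases and GAA. Capitals mark a match on either strand. Hsph1 (chr12:10427118-10427367, plus strand) and Hspa5 (chr3:38452766-38453015, plus strand) are followed by Hsp90b1 (chr7:23012294-23012543, minus strand), Oas1a (chr12:41330216-41330465, plus strand), Ifitm3 (chr1:205541759-205542008, minus strand) and Ccl20 (chr9:91836909-91837158, plus strand).
Hsph1, heat shock element: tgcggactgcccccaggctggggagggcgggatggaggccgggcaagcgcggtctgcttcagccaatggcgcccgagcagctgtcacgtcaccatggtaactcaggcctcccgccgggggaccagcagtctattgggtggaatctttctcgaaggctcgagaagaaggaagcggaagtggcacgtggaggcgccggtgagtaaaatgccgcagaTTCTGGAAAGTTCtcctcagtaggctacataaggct
Hspa5, ER stress element: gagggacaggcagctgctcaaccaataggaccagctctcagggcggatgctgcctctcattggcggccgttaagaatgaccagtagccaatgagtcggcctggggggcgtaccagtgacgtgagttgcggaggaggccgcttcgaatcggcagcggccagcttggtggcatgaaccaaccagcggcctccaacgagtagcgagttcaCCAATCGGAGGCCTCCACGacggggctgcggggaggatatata
Hsp90b1, ER stress element: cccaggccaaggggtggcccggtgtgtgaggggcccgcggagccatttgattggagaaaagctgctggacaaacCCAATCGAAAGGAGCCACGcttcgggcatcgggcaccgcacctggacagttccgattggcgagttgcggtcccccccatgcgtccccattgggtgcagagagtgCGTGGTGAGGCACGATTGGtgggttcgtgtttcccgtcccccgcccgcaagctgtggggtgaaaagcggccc
Oas1a, interferon-stimulated response element: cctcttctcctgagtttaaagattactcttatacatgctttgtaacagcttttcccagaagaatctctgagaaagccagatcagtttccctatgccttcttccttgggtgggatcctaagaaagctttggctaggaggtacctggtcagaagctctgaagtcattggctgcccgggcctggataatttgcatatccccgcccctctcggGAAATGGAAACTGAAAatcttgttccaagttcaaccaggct
Ifitm3, interferon-stimulated response element: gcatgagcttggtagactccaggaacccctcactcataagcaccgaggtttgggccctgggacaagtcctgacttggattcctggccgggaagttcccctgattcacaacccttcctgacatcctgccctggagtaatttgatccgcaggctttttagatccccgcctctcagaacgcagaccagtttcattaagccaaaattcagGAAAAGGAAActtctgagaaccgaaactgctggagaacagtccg
Ccl20, NF-kB site: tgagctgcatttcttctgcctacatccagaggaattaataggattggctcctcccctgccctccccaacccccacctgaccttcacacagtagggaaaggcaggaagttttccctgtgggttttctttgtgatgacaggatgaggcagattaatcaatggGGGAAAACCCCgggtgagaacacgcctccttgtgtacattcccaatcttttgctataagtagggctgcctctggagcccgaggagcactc

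The Hsph1 match lay 36 to 24 bases before the start and the Hspa5 match 43 to 25 bases before it, while Hsp90b1 held 2 matches. The capitals in Oas1a cover 2 overlapping matches, and those in Ccl20 cover 2 overlapping matches on the same strand. The heat shock element was found in 4 of 14 risen cytosolic chaperones that had a promoter entry and in 3 of 27 that were not called, against 0.798% of all windows. The ER stress element was found in 4 of 9 risen genes of the unfolded protein response and 2 of 14 not called, against 0.0657% of all windows. The interferon element was found in 6 of 7 risen interferon-stimulated genes and in 16 of 26 not called, against 3.92%. The NF-kB site was found in 3 of 5 risen cytokines and 4 of 21 not called, against 5.00%. The STAT site was in none of 6 risen acute phase genes and 6 of 19 not called, against 4.94%. The ER stress element and the promoters shown were chosen after the values were seen. A match is a description of these letters and not a bound site.

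Among the other raised genes, Clec10a, a C-type lectin of macrophages and dendritic cells that binds terminal galactose, stood at 22.8, 45.0 and 26.8 in the CTL pools and 746, 768 and 771 in the LPS pools. The 3 LPS pools lay within 746 to 771, and the rise was 24.5-fold (log2 fold change 4.61, SE 0.46, adjusted p = 0.000857). It was the single risen member of 7 dendritic cell markers, of which Cd1d1, a lipid-presenting molecule, fell (328, 287 and 303 in the CTL pools and 156, 153 and 122 in the LPS pools, log2 fold change -1.09, SE 0.16, adjusted p = 0.00839). Both were stable genes. Gpx2, a glutathione peroxidase of epithelia, stood at 123, 228 and 213 in the CTL pools and 1614, 1280.1 and 1304 in the LPS pools (log2 fold change 2.93, SE 0.24, adjusted p = 0.000221), and Sod2, the mitochondrial superoxide dismutase, at 1665, 1768 and 1509 in the CTL pools and 3956, 4073 and 3832 in the LPS pools (log2 fold change 1.26, SE 0.11, adjusted p = 0.000243). With Gsta1 (log2 fold change 1.28) they were the 3 risen members of 30 glutathione and NRF2 genes, of which Mgst2 fell by 0.44 on the log2 scale, while the NRF2 target Hmox1 stood at 0.00 and Nqo1 at -0.47, neither called. Chia, the acidic chitinase, and Slc28a2, a nucleoside transporter, rose by 2.33 and 2.73 on the log2 scale, and Slc28a2 was called in no fit without a pool except that without CTL pool 2 (log2 fold change 3.61, adjusted p = 0.00174), and without CTL pool 1 it stood at 2.11.

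**Figure D4:**
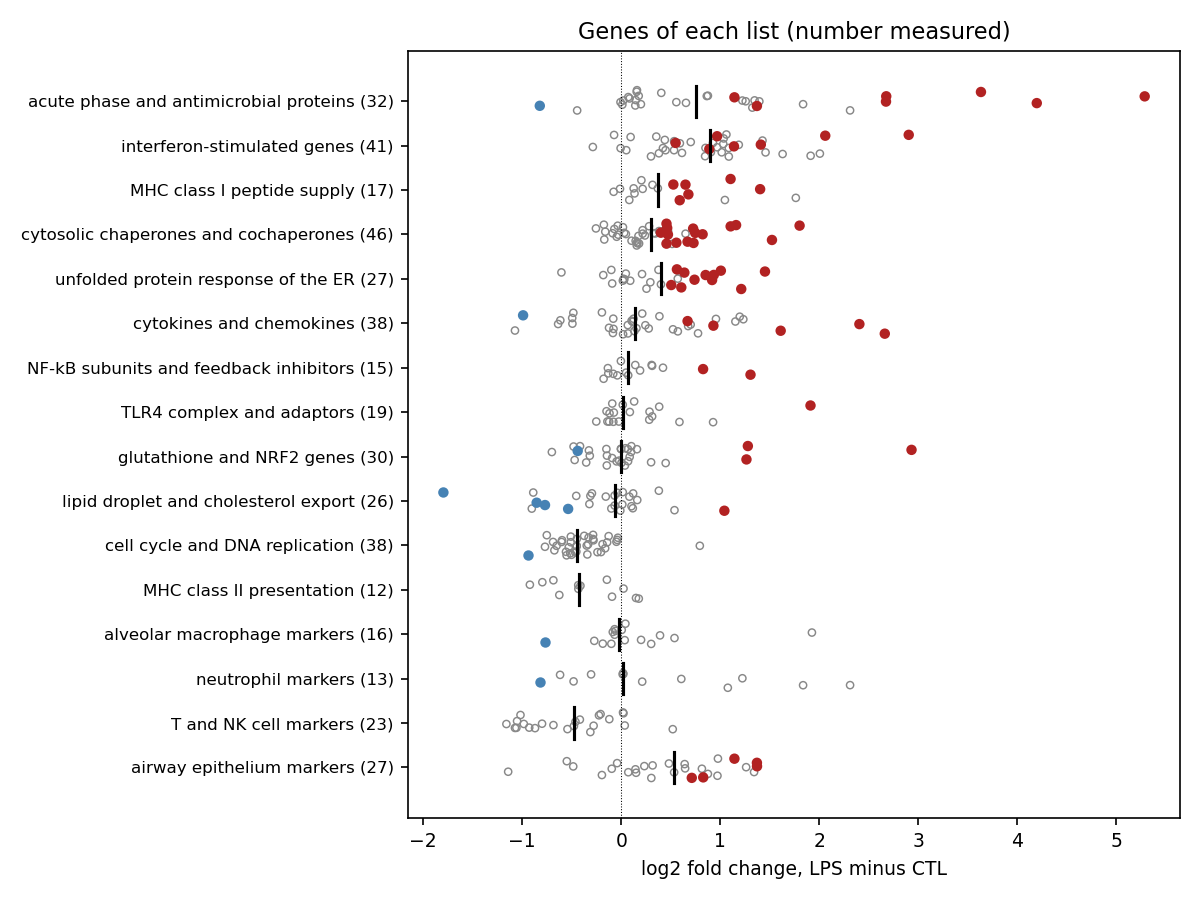
Log2 fold change of LPS minus CTL for the genes of 16 lists, with the number of measured genes in brackets. Filled red and blue points are genes called higher and lower, open points were not called, and the black bar is the median of the list. Filled red points gather in the acute phase, interferon, MHC class I, chaperone and ER lists, and nearly all cell cycle genes lie left of 0.

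The genes that fell did so by less and formed fewer groups. Tac1, the precursor of substance P, showed the lowest fold change, at 349, 176 and 266 in the CTL pools and 78.1, 60.8 and 67.8 in the LPS pools (log2 fold change -1.87, SE 0.24, adjusted p = 0.00462). Star, the steroidogenic regulator that moves cholesterol to the inner mitochondrial membrane, stood at 405, 293 and 375 in the CTL pools and 112, 108 and 85.4 in the LPS pools (log2 fold change -1.80, SE 0.31, adjusted p = 0.0181), with both probe sets called. Dhrs3, a reductase of retinal, stood at 445, 357 and 411 in the CTL pools and 112, 111 and 136 in the LPS pools (log2 fold change -1.75, SE 0.27, adjusted p = 0.00946). Tnfrsf8, the activation receptor CD30, stood at 192, 147 and 171 in the CTL pools and 59.5, 76.7 and 48.0 in the LPS pools (log2 fold change -1.47, SE 0.19, adjusted p = 0.00462). In all 4 genes the groups did not overlap, as at every called probe set, and Tac1 and Tnfrsf8 were stable.

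Beside these and Cirbp, the 15 lowest genes held Ptgr1, which inactivates prostaglandins and leukotrienes, Tppp, Ctla2a, Rab40b, Il36b, Paqr5, Osbpl3, Scd2, Cd180 and Hgf, at log2 fold changes of -1.61 to -1.11. Cd180, a TLR4-like receptor known for restraining LPS signaling, went from 99.8, 117 and 113 in CTL to 40.7, 49.9 and 59.7 in LPS (log2 fold change -1.13, SE 0.24, adjusted p = 0.0365). Hgf, the hepatocyte growth factor that macrophages release for epithelial repair, went from 121, 78.8 and 88.5 in CTL to 48.6, 46.2 and 35.8 in LPS (log2 fold change -1.11, SE 0.19, adjusted p = 0.0181). Osbpl3 and Scd2 had 1 called probe set of 2 and of 4. None of these genes was called in all fits without a pool.

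Lipid handling was the list with the most fallen members. Of 26 genes of lipid droplets and cholesterol export, 4 fell and 1 rose, with a median of -0.07. Beside Star these were Pparg, the nuclear receptor that sets the alveolar macrophage program, at 819, 651 and 772 in the CTL pools and 465, 449.6 and 397 in the LPS pools (log2 fold change -0.77, SE 0.12, adjusted p = 0.012), Mylip, which degrades the LDL receptor, and Soat1, which esterifies cholesterol. Cidec and the cholesterol exporter Abca1 were at -0.89 and -0.90, with an adjusted p of 0.0569 and 0.0602. Ch25h, which makes an antiviral oxysterol, rose from 1049.6, 863 and 896 in CTL to 1609, 2358 and 1871 in LPS (log2 fold change 1.04, SE 0.16, adjusted p = 0.0106). None of the 4 fell beyond the test without CTL pool 1 or 3, and 1 to 4 did without another pool, while Ch25h lost its call without CTL pool 3. Of 19 genes of cholesterol synthesis, none was called.

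Cell cycle genes pointed down together without passing the test singly. Of 38 measured, 37 lay below 0, where 45.6% of all genes lay above 0, and the median log2 fold change was -0.45. The single call was Prc1, a spindle midzone protein, at 830.5, 633 and 647 in the CTL pools and 433, 329 and 334 in the LPS pools (log2 fold change -0.94, SE 0.22, adjusted p = 0.0478), and it was lost in every fit without a pool. The proliferation marker Mki67 stood at 508, 433 and 395 in the CTL pools and 371, 268 and 289.6 in the LPS pools, each LPS pool below each CTL pool (log2 fold change -0.53, SE 0.28, adjusted p = 0.435). The list mean was 7.13 to 7.49 in LPS, 7.55 to 7.85 in CTL and 6.97 to 7.38 in HPO.

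Of 17 circadian clock genes 1 rose and 1 fell. Cry1, a repressor of the clock, stood at 104, 96.4 and 112 in the CTL pools and 183, 208 and 199.7 in the LPS pools (log2 fold change 0.91, SE 0.12, adjusted p = 0.00462) and was stable, and Dbp, a clock output factor, fell from 61.4, 63.4 and 84.1 in CTL to 38.4, 41.3 and 43.5 in LPS (log2 fold change -0.73, SE 0.15, adjusted p = 0.0301). Among 20 immediate early transcription factors Klf4 and Fosb fell (log2 fold changes -0.91 and -0.49) and none rose, with a median of -0.27 that became -0.06 without CTL pool 2. Of 16 genes of SOCS and gp130 signaling 1 fell, Jak2 at -0.86, and Socs3, the feedback inhibitor of interleukin-6 signaling, stood at 0.10 (adjusted p = 0.867). Of 15 glucocorticoid-induced genes Lcn2, which is also in the acute phase list, was the single call. No gene of 14 in the iron and metallothionein list or of 10 housekeeping genes was called.

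Markers of recruited leukocytes gave few calls. Of 13 neutrophil markers none rose and Camp fell, with a median of 0.02, and without CTL pool 2 S100a8 and S100a9 rose. The neutrophil list mean was 6.73 in that pool, 5.35 and 5.45 in the other CTL pools and 6.14 to 6.30 in LPS. Of 10 monocyte markers Cd14 rose, joined without that pool by Vcan and Ly6c. None of 23 T and NK cell, 10 B cell, 15 alveolar epithelium, 12 endothelium and fibroblast, 8 erythrocyte and platelet or 9 eosinophil and mast cell markers was called with all pools. Of the 16 alveolar macrophage markers Pparg fell and none rose, while without CTL pool 2 Chi3l1, a chitinase-like protein, was called higher (42.6, 253 and 38.2 in the CTL pools and 348, 242 and 280.4 in the LPS pools, log2 fold change 1.93 with that pool, adjusted p = 0.14, and 2.80 without it, adjusted p = 0.0072). The list mean was 10.08 to 10.30 in CTL and 10.22 to 10.42 in LPS.

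The response was compared with that to LPS under hypoxia, COMB minus HPO, which uses none of these 6 arrays and shares with them only the estimate of residual spread. 2 of the COMB pools held RNA of 2 rats. Of the 223 probe sets called higher in normoxia, 215 were above 0 in hypoxia and 176 were also called higher there, against 6.83% of all probe sets, and none was called lower. Of the 302 called lower, 295 were below 0 in hypoxia and 232 were also called lower, against 8.75%, and 1 was called higher. The median log2 fold change of the 223 was 0.93 in hypoxia against 0.84 in normoxia, and that of the 302 was -0.66 in both.

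**Figure D5:**
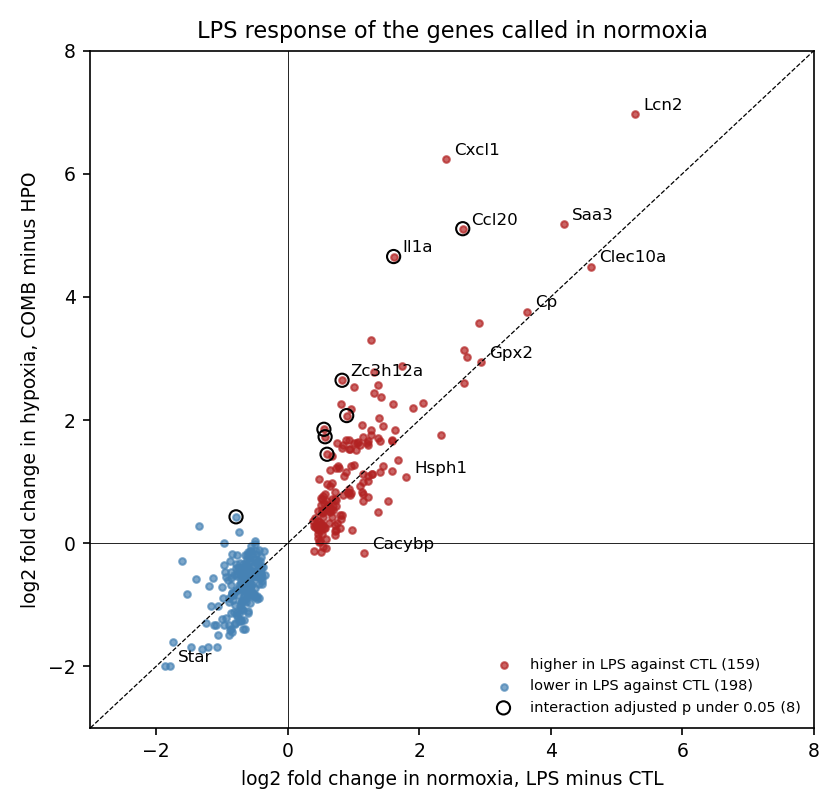
Log2 fold change of LPS in normoxia (LPS minus CTL, horizontal) against that in hypoxia (COMB minus HPO, vertical) for the 357 genes called in normoxia, with the line of equality dashed. Circles mark 8 genes whose 2 responses differed by the interaction test. All 8 lie above the line, with Il1a and Ccl20 the farthest from it among the 8, and Cacybp lies below 0 in hypoxia at -0.16.

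The difference of the responses was tested as the interaction of LPS and hypoxia. It was called for 35 probe sets (0.136%), 7 of them among the 223 that rose in normoxia and 2 among the 302 that fell. By gene, where 0.179% of all genes had a call, 8 of the 357 called genes differed, 7 that rose and 1 that fell, and in each the log2 fold change was greater in hypoxia. The log2 fold change of Ccl20 was 2.66 in normoxia and 5.11 in hypoxia, a difference of 2.45 (adjusted p = 0.00055), and that of Il1a was 1.61 and 4.66 (difference 3.05, adjusted p = 0.021). For some chaperones the fold change was smaller in hypoxia, and no such difference was called. The log2 fold change of Hsph1 was 1.80 in normoxia and 1.07 in hypoxia (interaction adjusted p = 0.198). The log2 fold change of Cacybp was 1.16 in normoxia and -0.16 in hypoxia (interaction adjusted p = 0.0911), and 9 of the 46 cytosolic chaperones were called higher in hypoxia, against 9.18% of all genes. Among genes called in normoxia, those with the smallest p for a more negative log2 fold change in hypoxia, Cybc1, Hnrnpa1, Tmem33, Dnajb9 and Pabir2, had an adjusted p of 0.073 to 0.089. Among genes not called in normoxia, 3 passed the test in that direction, namely Lap3, Nat1 and Zbtb34 (log2 fold changes 0.22, 0.13 and -0.24 in normoxia and -1.53, -0.69 and -1.34 in hypoxia). Without 1 CTL or LPS pool the interaction count fell to between 3 and 9, except without CTL pool 1, where it was 36. Its dependence on single HPO and COMB pools was not tested.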

How the data were processed

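Total RNA of lavage cells, pooled within a group, was measured on Affymetrix rat expression arrays, 1 pool per array. The intensity values deposited by the authors are 1 linear value per probe set and array, and their normalization is not given in the sources used here. Array medians were 32.7 to 34.5 in the 6 CTL and LPS arrays. The precision is limited by the 3 arrays per group. Of 31099 probe sets, 57 were controls and were left out, and the platform annotation gave 20832 probe sets 1 gene, 436 several and 9831 none. Among the called probe sets, 39 of the 223 higher and 59 of the 302 lower had none or several.

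Here the deposited values were turned into log2 of intensity plus 1. Probe sets above their array's 20th percentile in at least 3 arrays were fitted with limma 3.58.1 in R 4.3.3 as 4 group means over all 12 arrays, with 8 residual degrees of freedom, and Benjamini-Hochberg adjustment covered all 25692 probe sets. Where several probe sets named only 1 gene, the brightest over all arrays stood for it. Named were the 15 highest and 15 lowest called genes of at least 2-fold change without overlap, up to 6 called genes per list, genes the study measured by name, 5 interaction genes per direction, and other defining members of a list as background. Genes called in all fits without a pool, and a few others named beside them, were chosen after their values were seen. The 31 gene lists, 11 of them cell type markers, and the comparison itself were chosen with earlier results of these data known.

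On simulated data with 200 changed probe sets of 25692, this fit of LPS against CTL recovered 45.6% at 1.5-fold, 90.4% at 2-fold and 97.6% at 4-fold, and 4.24% of its calls were false. The simulated noise was normal, independent between probe sets and equal over arrays, with no pool standing apart. The real pools differ from that setting, so these shares are not error rates of the calls above. With 3 pools against 3, an exact permutation test could not give a p under 0.1, so none was run. Alternatives were other normalizations, filters, pseudocount, fits, array weights, an unpaired t-test, a block by shared rat numbers and leaving out each CTL or LPS pool. No HPO or COMB pool was left out. Promoters came from RefSeq (GRCr8). Tables and figures were made with pandas 2.3.3, numpy 2.4.6 and matplotlib 3.10.9.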

Additional observations from a re-analysis of the deposited data

Results flagged for a closer look

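The response to LPS differed between hypoxia (COMB minus HPO) and normoxia (LPS minus CTL) by the interaction test in limma for several of the named genes, each with a greater log2 fold change in hypoxia. The difference was 2.45 for Ccl20 (adjusted p = 0.00055), 1.82 for Zc3h12a (adjusted p = 0.0135) and 3.05 for Il1a (adjusted p = 0.0206). It was 2.28 for Tnf (adjusted p = 0.0396), which was not called in normoxia. It was 1.30 for Parm1 (adjusted p = 0.0206) and 1.16 for Terf2ip (adjusted p = 0.0261), both called higher in normoxia.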

How the results depend on the processing

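Among the 91 genes taken by the naming rule, no fold change changed sign under the alternatives run. The called genes among them had no overlap between the LPS and CTL pools, so leaving out a pool could not reverse their sign. Genes named only as background of a list, Cxcl2, Isg15 and S100a9 among them, were refitted only without CTL pool 2. The 525 probe sets called (223 higher, 302 lower, 118 of them at least 2-fold) became 3702 with array weights (1427 higher, 2275 lower, 256 at least 2-fold). They became 1147 with only the LPS and CTL arrays (447 higher, 700 lower). The weights of CTL pools 1, 2 and 3 were 0.760, 0.759 and 4.12. The largest weight, 6.385, and the smallest, 0.226, were those of HPO pools. An unpaired t-test gave 4425 at an unadjusted p (1800 higher, 2625 lower) and 1 after Benjamini-Hochberg adjustment (1 higher, 0 lower, 0 at least 2-fold), where the limma fit had 3796 at an unadjusted p. For the arrays the study's methods name a paired t-test and a 2-fold criterion, and that paired test was not run here. Quantile normalization gave 352 higher and 334 lower. Leaving out 1 pool gave 64 to 445 calls, 47 to 210 of them higher, 17 to 235 lower and 36 to 171 at least 2-fold. The interaction, with 35 calls, had 56 with probe sets above the median, 78 with a pseudocount of 16 and 83 after quantile normalization. It had 114 in a trended robust fit, 2116 with array weights and 3 to 36 without 1 CTL or LPS pool. With the replicate block by shared rat numbers the calls were 736 (293 higher, 443 lower, 148 at least 2-fold), 371 of them among the 525. Pools blocked by shared numbers did not deviate together (correlations 0.039, -0.00764 and -0.00159). LPS pool 1 also shared a number with CTL pool 2 (correlation -0.0467). With so few pools per group this does not settle whether the numbers pair the samples. Over those genes, 262 of the values without a pool lost their call, 2 gained one and 282 kept their side of the threshold, and under the other alternatives 121 lost, 13 gained and 1046 kept it. The causes of these shifts were not tested. Of the dimmest of 4 equal parts of the probe sets 0.156% was called, against 4.83% of the brightest, and the reason for this was not tested.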
